A study of Mus musculus with 3 samples.

Results

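A list of 9 genes measured in single cells of the mouse suprarenal aorta encodes the core of iron and haem handling in macrophages, and their levels were followed through macrophage subsets, monocytes, other leukocytes and 3 libraries. The genes were listed by name: Hmox1, Blvrb and Blvra, which break down haem, Slc40a1, which exports iron, Fth1 and Ftl1, the chains of ferritin, and Trf, Tfrc and Slc11a1, which carry or import iron. The 9 genes are a small set among the 27998 genes of the matrices, and each was found there once.

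Macrophages recycle iron from haem. Haem oxygenase 1, the product of Hmox1, opens the haem ring and releases iron, carbon monoxide and biliverdin, which biliverdin reductases turn into bilirubin. The released iron leaves the cell through ferroportin, the product of Slc40a1, or is stored in the shell of ferritin, which is built of the heavy chain (Fth1) and the light chain (Ftl1). In the wall of a diseased artery, macrophages also take up haem from red cells that leak into the tissue.

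The control library was made from the pooled suprarenal aortas of 5 C57BL/6 mice fed chow. For the room-air library, tissue of 5 Apoe-/- mice was pooled. These mice lack apolipoprotein E and were kept on a Western (high fat) diet for 16 weeks in room air. The aneurysm library pooled 4 Apoe-/- mice on that diet that were exposed to cigarette smoke over the same 16 weeks and had measurable aneurysms. All cells had been sorted as CD45+CD31- leukocytes or CD45-CD31+ endothelial cells, so smooth muscle cells and fibroblasts were outside the gates. Room air against control therefore compares the loss of Apoe and the diet together, and aneurysm against room air compares smoke and the choice of mice with dilated aortas together. Neither pair can be told apart in this design. The room-air library serves in both comparisons. Each group was 1 library of pooled mice with no replicate, so no test between groups exists. Every interval is a 95% interval of counting error only and does not cover the spread between mice.

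Apoe, the deleted gene, was at 10540 UMI counts per 1000000 (CPM) in the control library, 17.1 in room air, against 12.9 in aneurysm. The libraries held 782, 1851 and 2842 barcodes in the order control, room air, aneurysm, with medians of 2681 to 4476 unique molecular identifiers (UMIs) per barcode, and 773, 1821 and 2775 cells were kept. The stated viability of the cells was 73%, 91% and 94% in the same order, so room air against control also differs in this. At most 5 barcodes were shared between any pair of libraries. RNA from lysed cells was gauged from the complement genes C1qa, C1qb and C1qc in B cell-like cells, whose level there was 5.86%, 20.2% and 8.04% of that in the whole library.

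The cells fell into 24 clusters, drawn with the iron and haem genes and Apoe left out of the genes used. The macrophage-like class held 263, 496 and 542 cells in the order control, room air, aneurysm, and all 10 of its markers (C1qa, Adgre1, Csf1r and others) had UMIs in every library. Its makeup differed sharply between libraries. A resident subset was led by Apoe, the gene deleted in the room-air and aneurysm mice, then Cd209f, Lyve1, Cd209g, Ccl24, Folr2, Fcna, Cd163, Ednrb and Pf4. It made up 95.1% of the class in control, 10.3% in room air, against 16.6% in aneurysm. A lipid-associated subset, marked by genes such as Spp1, Gpnmb and Trem2, made up 2.66%, 39.1% and 53.1%. The remaining macrophage-like cells, led by Ccl12, Cxcl10 and Ifit3, numbered 6, 251 and 164. Classes and subsets with fewer than 25 cells in a library are given no level there. Markers of red cell precursors summed to 4.55, 1.88 and 1.57 CPM in the macrophage-like class.

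Several of these genes carry an iron-responsive element, a short hairpin in the RNA that iron regulatory proteins bind when iron is scarce. Bound ahead of the coding part, it blocks translation, as for ferritin and ferroportin. Bound after it, it protects the RNA from decay, as for the transferrin receptor. The elements are shown because they separate the genes of the list that carry this iron sensor in their RNA from those in which none was found. Each line gives 28 bases of the GENCODE transcript (release M21, build GRCm38) with the 6-base loop in capitals.
Fth1, ahead of the coding part, chr19:9982733-9982760, plus strand: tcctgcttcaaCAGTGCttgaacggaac
Ftl1, ahead of the coding part, chr7:45459779-45459806, minus strand: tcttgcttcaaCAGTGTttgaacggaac
Slc40a1, ahead of the coding part, chr1:45925465-45925492, minus strand: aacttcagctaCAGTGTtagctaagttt
Tfrc, after the coding part, chr16:32631220-32631247, plus strand: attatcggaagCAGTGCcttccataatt
Tfrc, after the coding part, chr16:32631599-32631626, plus strand: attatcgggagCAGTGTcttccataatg
Tfrc, after the coding part, chr16:32631664-32631691, plus strand: tatatcggagaCAGTGAtctccatatgt
Tfrc, after the coding part, chr16:32631711-32631738, plus strand: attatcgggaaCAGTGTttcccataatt
The search asked for the loop CAGTGN, with A, C or T at N, on the transcript's own strand, closed by 5 paired bases (G with T allowed). A C had to precede these bases, and whether that C is unpaired was not checked. It found a match in 4 of the 9 genes and in 222 of 21901 genes with a coding transcript (1.01%). Hmox1, Blvrb, Blvra, Trf and Slc11a1 had no match to these letters. A match is a description of the sequence and shows no binding.

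All 9 genes are protein coding in the GRCm38 annotation. Hmox1 (ENSMUSG00000005413) lies at chr8:75093621-75100589, Blvrb (ENSMUSG00000040466) at chr7:27447978-27466144 and Blvra (ENSMUSG00000001999) at chr2:127070665-127097084. Slc40a1 (ENSMUSG00000025993) lies at chr1:45908068-45926523, Fth1 (ENSMUSG00000024661) at chr19:9980598-9985098 and Ftl1 (ENSMUSG00000050708) at chr7:45457944-45459884. Trf (ENSMUSG00000032554) lies at chr9:103204001-103230444, Tfrc (ENSMUSG00000022797) at chr16:32608920-32632794 and Slc11a1 (ENSMUSG00000026177) at chr1:74375195-74386062. Ftl1 has a near copy on chromosome 13, Gm10116, which is 99.6% identical to it over 549 coding bases and holds the same hairpin. Gm10116 took 2.71, 3.05 and 1.97 UMIs per 100 of Ftl1 in control, room air and aneurysm, so the split of reads between the pair is uncertain. Of 9 promoters of 6 of the genes in the RefSeq table (GRCm38.p6; Hmox1, Slc40a1 and Trf are not in it), those of Slc11a1, Blvrb and Blvra held the antioxidant response motif TGANNNNGC on either strand, as did 41.3% of all 32851 promoters, and none held the Maf motif TGCTGAG, found in 7.84% of all.

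Ferritin was by far the most abundant product of the list in macrophage-like cells: Ftl1 ranked 5th, 4th and 4th of all genes by UMIs in the macrophage-like class of control, room air and aneurysm, and Fth1 ranked 7th, 6th and 6th. The pair supplied 2.28%, 2.97% and 3.23% of all UMIs of the class, against 0.542%, 0.707% and 0.562% in B cell-like cells. Trf and then Blvrb followed on the CPM scale in each library, Hmox1, Blvra and Slc11a1 came next in an order that differed between libraries, and Slc40a1 and Tfrc stood lowest, with 27 to 48 and 20 to 23 UMIs in the class in each library. These are 3' UMI counts, which take 1 tag per RNA molecule, so levels of different genes were compared without division by length.

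**Figure D1:**
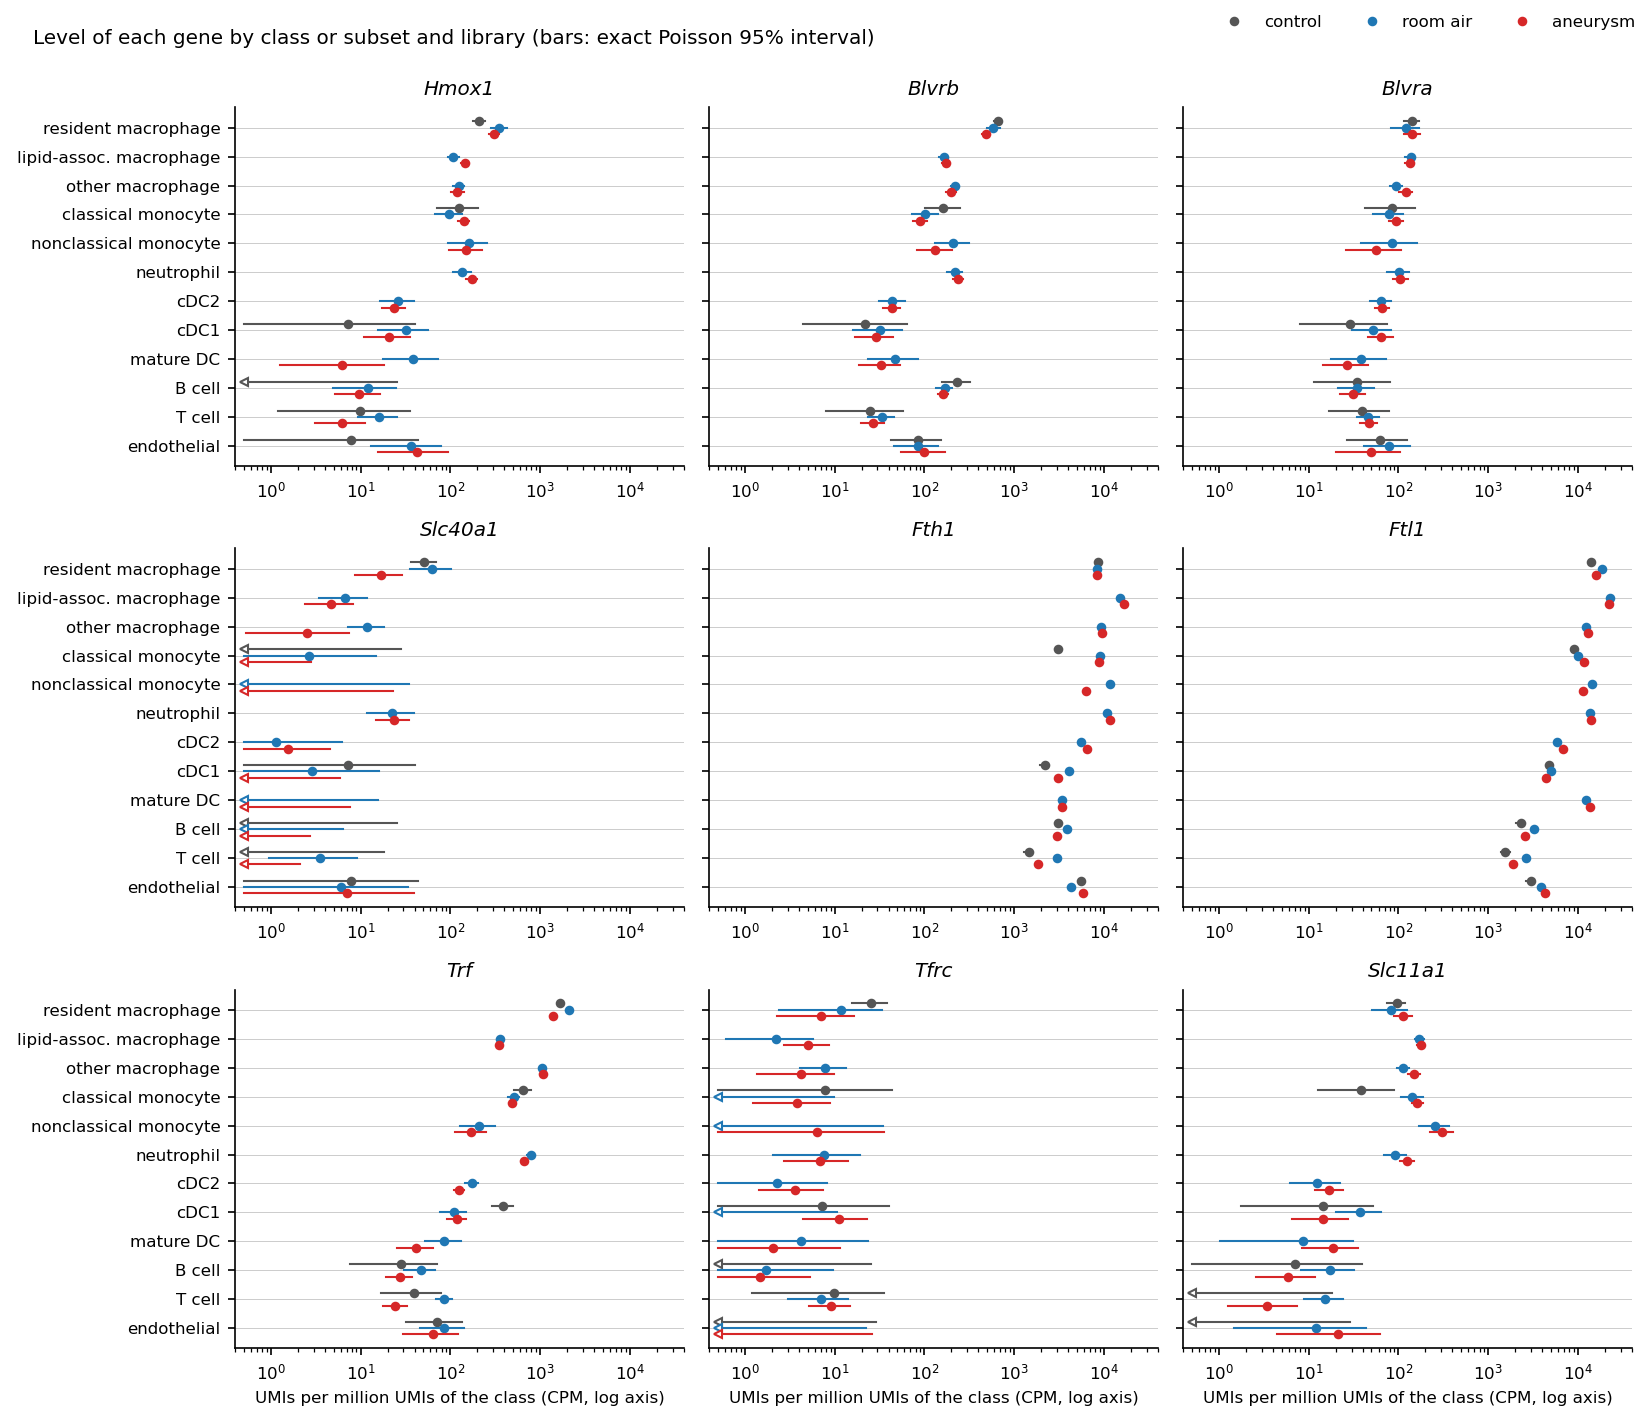
Level of each gene (CPM over all UMIs of the class, log axis) by class or macrophage subset and library, with exact Poisson 95% intervals; an open triangle at the left edge marks 0 UMIs. Among the macrophage subsets of room air and aneurysm, Fth1 and Ftl1 are highest in the lipid-associated one, and Hmox1, Blvrb, Slc40a1 and Trf in the resident one.

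Hmox1, the inducible enzyme that opens the haem ring, was a macrophage and monocyte gene here. Its level in macrophage-like cells was 203 CPM (174 to 235) in control, 132 CPM (121 to 144) in room air, against 164 CPM (152 to 176) in aneurysm. In classical monocyte-like cells it was at 124, 97.0 and 141 CPM, and in nonclassical monocyte-like cells at 160 and 151 CPM in room air and aneurysm. Levels in B cell-like cells were 0, 12.1 and 9.66 CPM and T cell-like cells 9.87, 15.9 and 6.24 CPM, the lowest levels of Hmox1 among the large classes. Conventional dendritic cells of type 2 (cDC2-like), which present antigen to helper T cells, held 26.0 and 23.7 CPM in room air and aneurysm.

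Within macrophages, Hmox1 was highest in the resident subset. The resident cells held 209 CPM (179 to 242) in control, 350 CPM (282 to 431) in room air, against 306 CPM (267 to 349) in aneurysm. The lipid-associated cells held 108 CPM (93.5 to 125) in room air, against 145 CPM (130 to 160) in aneurysm, and the other macrophage-like cells held 124 and 119 CPM. The resident and lipid-associated intervals did not overlap in either library. With every cell thinned to 1500 UMIs, 27.9% of resident cells in control had a Hmox1 UMI (22.2 to 34.1, exact Clopper-Pearson), 45.1% in room air (31.1 to 59.7) with 36.7% in aneurysm (26.8 to 47.5). In lipid-associated cells the share was 16.0% in both libraries, and in B cell-like cells, which set the background from free RNA, it was 0%, 1.77% and 1.52%. The thinning left out 17 of 250 resident cells and 70 of 99 B cell-like cells in control and none of these classes elsewhere. Unthinned, the resident shares were 44.4%, 74.5% and 83.3%, at median depths of 2969, 5009 and 7138 UMIs per cell (B cell-like cells 1295, 2228 and 2398).

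Blvrb, which encodes biliverdin reductase B, a flavin and biliverdin reductase abundant in red cells, differed more between the macrophage-like classes of control and room air than Hmox1 or Blvra did. In macrophage-like cells it was at 636 CPM (585 to 691) in control, 218 CPM (204 to 234) in room air, against 231 CPM (217 to 246) in aneurysm. Resident cells held 656, 588 and 486 CPM in the same order, and lipid-associated cells held 165 CPM in room air, against 175 CPM in aneurysm. Control macrophages thus stood far above those of the other libraries as a class, while resident cells were high in all 3. B cell-like cells carried 230, 168 and 161 CPM against 24.7, 33.6 and 26.7 CPM in T cell-like cells, so Blvrb was 9.33-, 5.00- and 6.05-fold higher in B than in T cell-like cells. This separates Blvrb from Hmox1, which was near 0 in both lymphocyte classes.

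Blvra, which encodes biliverdin reductase A, the main biliverdin reductase of adult tissue, varied least among the haem-breakdown genes. Macrophage-like cells held 141, 116 and 132 CPM in control, room air and aneurysm, resident cells 141, 121 and 142 CPM, and lipid-associated cells 136 and 133 CPM in room air and aneurysm. Classical monocyte-like cells held 85.2, 78.2 and 94.0 CPM, and B cell-like cells 34.9, 34.7 and 31.2 CPM.

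Slc40a1, which encodes ferroportin, the iron exporter of vertebrate cells, was scarce, with UMIs in few cells of any macrophage subset. In the macrophage-like class as a whole it stood highest in control and lowest in aneurysm. In macrophage-like cells 45, 48 and 27 UMIs gave 51.2 CPM (37.4 to 68.5) in control, 12.9 CPM (9.52 to 17.1) in room air, against 6.05 CPM (3.99 to 8.80) in aneurysm, and the 3 intervals did not overlap. Resident cells held 50.6 CPM (36.5 to 68.4) in control, 62.3 CPM (35.6 to 101) in room air, against 16.7 CPM (8.65 to 29.3) in aneurysm, from 42, 16 and 12 UMIs. Lipid-associated cells held 6.73 CPM (3.48 to 11.8) in room air, against 4.68 CPM (2.42 to 8.17) in aneurysm, and the other macrophage-like cells 11.9 and 2.54 CPM, the last from 3 UMIs. Outside macrophages, Slc40a1 was at 22.7 and 23.4 CPM in a neutrophil-like class that also carried macrophage markers at 13930 and 12347 CPM in sum. B cell-like cells had 0 UMIs in each library, which allows up to 20.9, 5.20 and 2.23 CPM, and classical monocyte-like cells had 0, 1 and 0 UMIs. At 1500 UMIs per cell, 6.44% (3.65 to 10.4), 13.7% (5.70 to 26.3) and 3.33% (0.693 to 9.43) of resident cells had a Slc40a1 UMI, against 2.06% and 0.347% of lipid-associated cells and 0% of B cell-like cells.

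Fth1 encodes the ferritin heavy chain, which oxidises iron for storage, and its level depended on the macrophage subset. Macrophage-like cells held 8798, 12014 and 13458 CPM in control, room air and aneurysm. Resident cells held nearly the same level in each library, at 8601, 8485 and 8320 CPM, while lipid-associated cells held 15107 CPM in room air, against 16758 CPM in aneurysm. The other macrophage-like cells held 9268 and 9406 CPM. At 1500 UMIs per cell the median resident cell had 12, 12 and 11 Fth1 UMIs, and the median lipid-associated cell 19 in room air, against 23 in aneurysm. The level of the resident subset thus did not follow that of the whole class.

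Ftl1 encodes the ferritin light chain, which helps the iron core form. Macrophage-like cells held 13959, 17647 and 18858 CPM in control, room air and aneurysm, resident cells 13806, 18641 and 15961 CPM, and lipid-associated cells 22635 and 22353 CPM in room air and aneurysm. In the lipid-associated subset Ftl1 was the 2nd gene by UMIs in room air and the 1st in aneurysm, and Fth1 the 5th in both. Among the dendritic cells, mature ones (marked by Ccr7, Fscn1 and Ccl22) held 12143 and 13784 CPM of Ftl1 in room air and aneurysm against 5827 and 6778 CPM in cDC2-like cells, 2.08- and 2.03-fold more, but only 3374 and 3456 CPM of Fth1 against 5624 and 6470 CPM, 1.67- and 1.87-fold less. The chains of ferritin therefore went opposite ways between these classes. Over the alternatives Ftl1 ran from 1.61- to 2.75-fold more in room air and 1.83- to 2.18-fold more in aneurysm. Fth1 ran from 1.49- to 2.31-fold less in room air and 1.14- to 2.06-fold less in aneurysm, so its size was less stable than its direction.

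The balance of the chains can be read within the same cells as Fth1 UMIs per Ftl1 UMI, a ratio that does not depend on depth. Mature dendritic cell-like cells had the lowest ratios, 0.278 in room air, against 0.251 in aneurysm. Endothelial-like cells had 1.87, 1.10 and 1.37 in control, room air and aneurysm, and B cell-like cells 1.35, 1.19 and 1.17. In classical monocyte-like cells the ratio was 0.343 (0.305 to 0.384) in control, 0.921 (0.879 to 0.965) in room air, against 0.766 in aneurysm, so that it lay below the resident macrophages of control and above all 3 macrophage subsets of room air. In conventional dendritic cells of type 1 (cDC1-like) it was 0.463, 0.831 and 0.696. Resident macrophages had 0.623, 0.455 and 0.521 and lipid-associated ones 0.667 and 0.750 in room air and aneurysm.

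**Figure D2:**
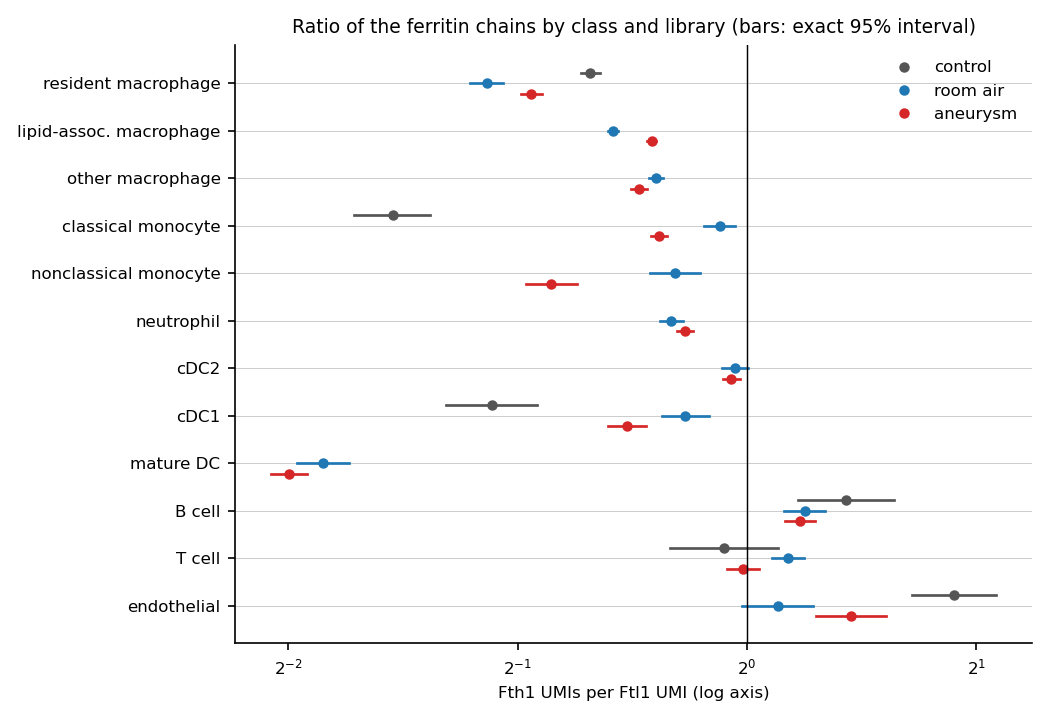
Fth1 UMIs per Ftl1 UMI (log axis) by class or subset and library, with exact 95% intervals. The classical monocyte-like ratio is 0.343 in control and 0.921 in room air, and the mature dendritic cell-like ratios of 0.278 and 0.251 lie below those of the other classes in the same libraries.

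Trf encodes transferrin, the protein that carries iron in plasma and is made mostly by the liver. It was the most abundant member after ferritin in macrophages. Macrophage-like cells held 1635 CPM (1552 to 1722) in control, 789 CPM (761 to 818) in room air, against 706 CPM (681 to 731) in aneurysm. Resident cells held 1687, 2102 and 1379 CPM, the other macrophage-like cells 1045 and 1066 CPM and lipid-associated cells 360 and 352 CPM in room air and aneurysm. The order resident, other, lipid-associated was the same in both of these libraries, with no overlap of intervals between lipid-associated cells and either of the others. At 1500 UMIs per cell, 87.1%, 90.2% and 77.8% of resident cells had a Trf UMI, against 3.45%, 6.64% and 4.12% of B cell-like cells.

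Tfrc encodes the transferrin receptor, which brings transferrin-bound iron into the cell and is most abundant in dividing cells. It was rare in all classes. Macrophage-like cells held 25.04 CPM (15.7 to 37.9) in control, 5.38 CPM (3.29 to 8.31) in room air, against 5.15 CPM (3.27 to 7.73) in aneurysm. In control 21 of the 22 UMIs came from resident cells, which were 95.1% of the class there. Resident cells in room air and aneurysm held 3 and 5 UMIs. T cell-like cells held 9.87, 7.08 and 9.07 CPM.

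Slc11a1 encodes Nramp1, which moves iron and manganese out of the phagosome. It was highest in nonclassical monocyte-like cells, the patrolling monocytes, at 254 CPM (167 to 370) in room air, against 303 CPM (223 to 401) in aneurysm. Macrophage-like cells held 100.1, 138 and 160 CPM in control, room air and aneurysm, and lipid-associated cells 171 and 178 CPM against 81.7 and 113 CPM in resident cells in room air and aneurysm. Classical monocyte-like cells held 38.7 CPM in control, from 5 UMIs, then 143 and 162 CPM. B cell-like cells held 6.97, 17.3 and 5.94 CPM.

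Between room air and control, Slc40a1, Tfrc, Blvrb, Trf and Hmox1 were lower in macrophage-like cells, while Fth1, Ftl1 and Slc11a1 were higher by less than 1.5-fold. A gene was counted as past the fold where it differed by at least 1.5-fold and had at least 20 UMIs over both libraries, which all 9 genes had. Past it were 5 genes lower and 0 higher, against a background of 14.7% lower and 25.9% higher among 9177 genes. Slc40a1 was 3.97-fold lower (2.58 to 6.08), Tfrc 4.65-fold lower (2.42 to 8.99), Blvrb 2.91-fold lower (2.61 to 3.25), Trf 2.07-fold lower (1.94 to 2.21) and Hmox1 1.53-fold lower (1.29 to 1.82). Fth1 was 1.37-fold higher (1.33 to 1.40), Ftl1 1.26-fold higher and Slc11a1 1.38-fold higher (1.10 to 1.75), and Blvra was 1.21-fold lower with an interval that includes no difference. The median log2 ratio of the 9 genes was -0.62, and that of all genes tested was 0.12. Hmox1 was the one called gene that alternatives took under the fold, with a range of 1.24 to 1.64. The control class was 95.1% resident cells and the room-air class 10.3%, and no control value exists without the resident cells, since 7 lipid-associated and 6 other cells remain there.

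Between aneurysm and room air, macrophage-like cells differed by less than 1.5-fold in every gene of the list except the iron exporter. Slc40a1 was 2.13-fold lower (1.31 to 3.56), with a range of 1.63 to 2.40 over the alternatives. Past the fold were 1 gene lower and 0 higher of 9, against 7.66% lower and 3.86% higher among 10038 genes. Hmox1 was 1.24-fold higher (1.10 to 1.39), Slc11a1 1.15-fold higher, Fth1 1.12-fold higher and Ftl1 1.07-fold higher, and Trf was 1.12-fold lower. The intervals of Blvrb, Blvra and Tfrc included no difference.

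**Figure D3:**
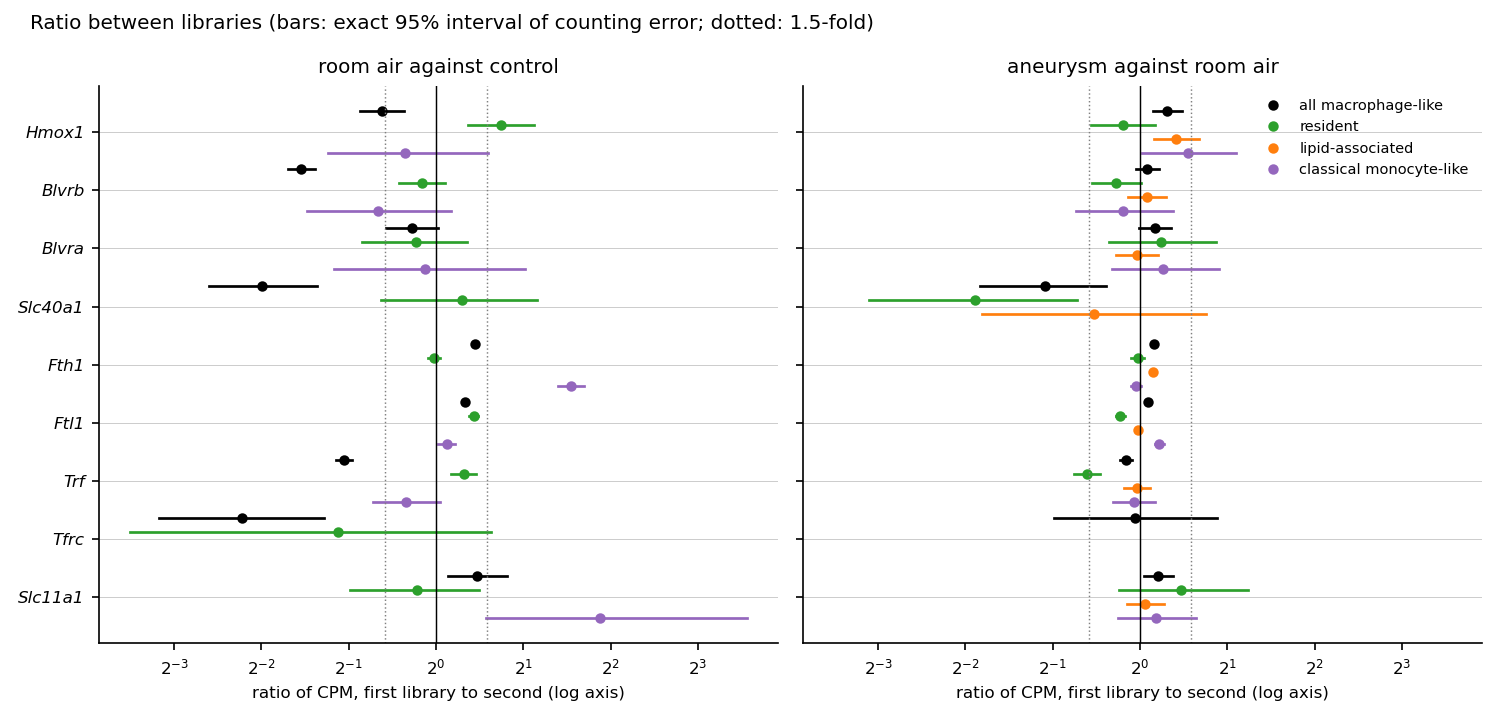
Ratio of each gene between libraries on a log axis, with exact 95% intervals of counting error; dotted lines mark 1.5-fold. In macrophage-like cells 5 genes lie past 1.5-fold lower for room air against control, and Slc40a1 alone for aneurysm against room air.

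Separating the subsets changed the picture for Hmox1. In resident cells it was 1.68-fold higher in room air than in control (1.29 to 2.18), against 1.53-fold lower in the class as a whole. Of the 9 genes, 1 was past the fold higher and 1 lower, against 14.9% of 5285 genes in each direction. The lower one was Tfrc, 2.17-fold with an interval that includes no difference (0.647 to 11.4). Ftl1 was 1.35-fold higher (1.31 to 1.40) and Trf 1.25-fold higher. Fth1, at 1.01-fold lower, Slc40a1, at 1.23-fold higher (0.645 to 2.23), and Blvrb, at 1.12-fold lower, differed less. These values rest on 51 resident cells in room air and on where the subset ends. With a stricter filter on cells the cluster took in 121 room-air cells, the Hmox1 ratio of room air to control became 0.822 and that of Slc40a1 became 0.391. With the iron and haem genes and Apoe among the clustering genes, the Hmox1 ratio was 1.02. Over all alternatives the ratio of room air to control ran from 0.918 to 1.46 for Ftl1 and 0.782 to 1.44 for Trf. For Blvrb it ran from 0.460 to 1.03 and for Fth1 from 0.945 to 1.09, so the direction did not hold for any of these genes.

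Slc40a1 and Trf were lower in aneurysm than in room air among resident cells. Slc40a1 was 3.72-fold lower (1.65 to 8.61; range over alternatives 2.43 to 4.30) and Trf 1.52-fold lower (1.37 to 1.69; range 1.29 to 1.71, which goes below the fold). Of the 8 genes with enough UMIs, these 2 were past the fold lower and 0 higher, against 11.8% lower and 15% higher among 5079 genes. In lipid-associated cells none of 8 genes passed the fold in either direction, against 6.26% higher and 7.67% lower among 8791 genes. Hmox1 was 1.34-fold higher there (1.12 to 1.60) and Slc40a1 1.44-fold lower (0.591 to 3.50). In the other macrophage-like cells Slc40a1 was 4.69-fold lower (1.39 to 24.7), from 20 UMIs in room air, against 3 in aneurysm.

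Resident and lipid-associated cells were also compared within the same library, where diet, genotype and the pool of mice are shared. Slc40a1, Trf, Blvrb and Hmox1 were higher in resident cells, and Fth1 and Slc11a1 in lipid-associated cells. In room air, 4 of 8 genes were past the fold higher in resident cells and 2 lower, against 19.3% and 26.7% of 7183 genes. In aneurysm the counts were again 4 and 2 of 8, against 18.5% and 20.8% of 8307 genes. Each gene named past the fold was on the same side in both libraries.

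Slc40a1 was 9.25-fold higher in resident cells in room air (4.11 to 21.4) and 3.58-fold higher in aneurysm (1.47 to 8.71). Trf was 5.85-fold (5.20 to 6.56) and 3.92-fold (3.58 to 4.29) higher, Blvrb 3.55-fold (2.90 to 4.34) and 2.78-fold (2.41 to 3.21) higher, and Hmox1 3.24-fold (2.49 to 4.18) and 2.11-fold (1.78 to 2.50) higher. Fth1 was 1.78-fold (1.70 to 1.86) and 2.01-fold (1.96 to 2.07) lower in resident cells, and Slc11a1 2.09-fold (1.34 to 3.42) and 1.57-fold (1.24 to 2.02) lower. Ftl1 was 1.21- and 1.40-fold lower, and the Blvra intervals included no difference. The size of the contrast moved with the clustering while its direction held for these 6 genes. Over 8 alternatives the room-air ratio ran from 3.33 to 14.3 for Slc40a1, 3.28 to 7.65 for Trf, 1.77 to 4.09 for Blvrb and 1.55 to 3.64 for Hmox1. In aneurysm it ran from 1.57 to 4.02 for Slc40a1, 2.59 to 4.19 for Trf, 1.66 to 2.90 for Blvrb and 1.38 to 2.26 for Hmox1, which goes below the fold. Resident cells were 1.74- to 1.97-fold lower for Fth1 and 1.84- to 2.36-fold lower for Slc11a1 in room air. In aneurysm they were 1.90- to 2.10-fold lower for Fth1 and 1.45- to 1.61-fold lower for Slc11a1, which also goes below the fold. Resident cells were named by markers that include Cd163, the haemoglobin scavenger receptor, so a contrast in that gene is part of their definition, whereas the 9 genes had no part in the clustering.

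**Figure D4:**
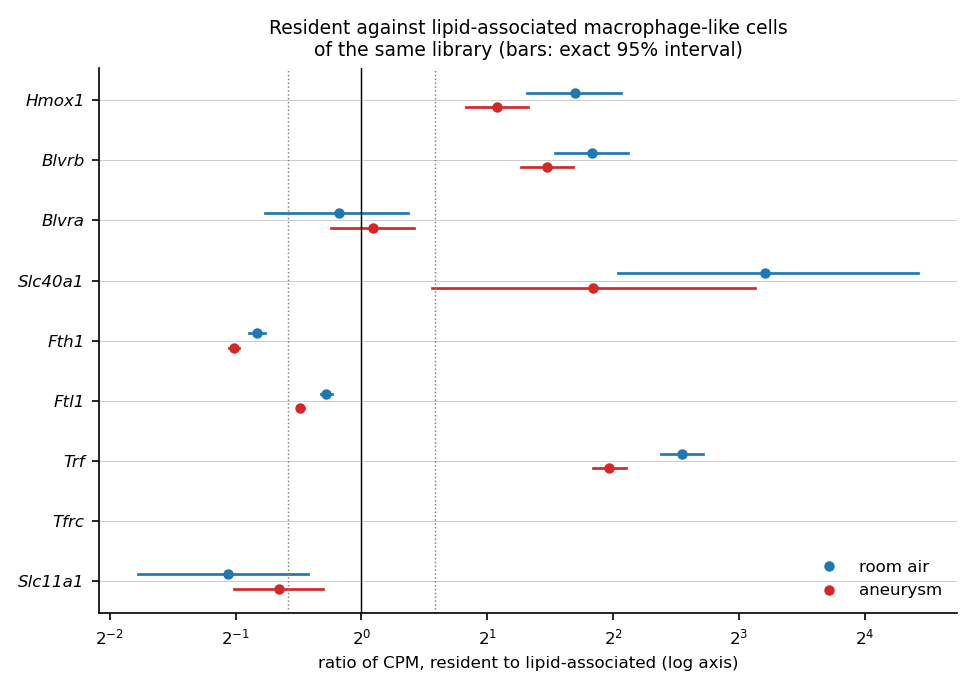
Ratio of each gene in resident against lipid-associated macrophage-like cells of the same library (log axis), with exact 95% intervals; Tfrc has no point because it had under 20 UMIs. Slc40a1, Trf, Blvrb and Hmox1 lie above 1.5-fold and Fth1 and Slc11a1 below it on the other side in room air and aneurysm alike.

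In classical monocyte-like cells Fth1 was 2.93-fold higher in room air than in control (2.64 to 3.25). The level was 3120 CPM (2823 to 3440) in the 38 control cells, 9130 CPM (8826 to 9443) in the 68 room-air cells and 8832 CPM in the 175 aneurysm cells, and the gene moved from the 48th to the 7th by UMIs. Ftl1 stood at 9105, 9915 and 11534 CPM, 1.09-fold higher in room air than in control (1.02 to 1.16), and was the 5th gene by UMIs in each library. The difference between these libraries was thus far larger in the heavy chain than in the light chain. Slc11a1 was 3.69-fold higher in room air than in control (1.49 to 11.8), from 5 and 53 UMIs. Over 9 alternatives the Fth1 ratio ran from 2.52 to 3.76 and the Slc11a1 ratio from 2.97 to 4.24. Of 7 genes with enough UMIs, 2 were past the fold higher and 1 (Blvrb, 1.59-fold, with an interval that includes no difference) lower, against 28.5% higher and 9.54% lower among 3124 genes, so the count itself lies near the background. At 1500 UMIs per cell the median monocyte held 4 Fth1 UMIs in control (10th to 90th percentile 2.7 to 7.6), 9.5 in room air (4 to 31.1) with 9 in aneurysm (3 to 25). The room-air and aneurysm cells were thus more spread as well as higher. The macrophage markers, 10 of 10 with UMIs in each library, summed to 1734, 4239 and 4147 CPM in these cells, and their part in the Fth1 ratio was not tested.

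Between aneurysm and room air, no member passed the fold in classical monocyte-like cells, against 12.9% higher and 11.5% lower among 6441 genes. Hmox1 was 1.46-fold higher (1.02 to 2.15) and Fth1 1.03-fold lower. In nonclassical monocyte-like cells Fth1 was at 11642 CPM in room air, against 6370 CPM in aneurysm, 1.83-fold lower (1.68 to 1.99), from 32 and 42 cells; with each cell classed by its own marker score the ratio was 1.03. Slc11a1 was 1.78-fold (1.08 to 2.88) and 1.87-fold (1.34 to 2.57) higher in nonclassical than in classical monocyte-like cells in room air and aneurysm.

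Among lymphocytes and dendritic cells, Fth1 was higher in room air than in control wherever it passed the fold. T cell-like cells held 1450, 2993 and 1847 CPM of Fth1 in control, room air and aneurysm, 2.06-fold higher in room air than in control (1.83 to 2.33) and 1.62-fold lower in aneurysm than in room air. Ftl1 stood at 1554, 2643 and 1869 CPM and Trf at 39.5, 84.9 and 24.4 CPM in the same cells. Of 6 genes with enough UMIs, 4 were past the fold higher in room air than in control, against 39.6% of 5907 genes, and 0 lower, against 7.08%. Of 8 genes, 4 (Fth1, Hmox1, Trf and Slc11a1) were past the fold lower in aneurysm than in room air and 0 higher, against 18.1% and 6.25% of 7852 genes. Of 10 macrophage markers, 9 had UMIs in T cell-like cells and Mertk had 0. They summed to 705 CPM in control, 2212 CPM in room air, against 704 CPM in aneurysm, and their part in these ratios was not tested. With the estimated free RNA subtracted, the Ftl1 ratio of room air to control in T cell-like cells was 0.485, and that of Fth1 was 1.40, below the fold. For aneurysm against room air, Fth1 ran from 1.25- to 1.63-fold lower over the alternatives, which goes below the fold. Hmox1, Trf and Slc11a1 stayed past the fold there. The Ftl1 ratio of aneurysm to room air ran from 0.701 to 2.07, on both sides of no difference.

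In cDC1-like cells Fth1 was at 2208, 4137 and 3103 CPM, 1.87-fold higher in room air than in control (1.65 to 2.13), and Trf at 385, 109 and 118 CPM, 3.52-fold lower (2.27 to 5.48). Of 4 genes with enough UMIs, 2 (Fth1 and Blvra) were past the fold higher and 1 lower, against 29.3% and 8.16% of 2709 genes. Blvra was 1.79-fold higher with an interval that includes no difference, and its range over the alternatives, 1.43 to 1.80, goes below the fold. The Trf ratio was sensitive to how the cells were classed and corrected, and ran from 1.64- to 24.3-fold lower. The macrophage markers in these cells summed to 1046, 2265 and 1302 CPM, and their part in the Fth1 ratio was not tested.

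The wider pathway was followed through 7 lists of related genes, counted in macrophage-like cells for room air against control. Over all genes in that comparison, 25.9% were past the fold higher and 14.7% lower, and each count is to be read against these shares. The class was 95.1% resident cells in control and 10.3% in room air, and the part of this makeup in the list values was not tested. Of the 10 haem synthesis genes 8 were higher, 4 of them past the fold, and 0 were past the fold lower, with a list median log2 ratio of 0.54 against 0.12 for all genes. Alas1, the rate-limiting enzyme of the pathway, was at 25.04 CPM in control and 82.6 CPM in room air, 3.30-fold higher (2.14 to 5.34). Uros was 1.97-fold higher with an interval that includes no difference. Metal import genes gave 4 higher and 0 lower past the fold among the 7 of 16 with enough UMIs (background 25.9% and 14.7%), and the low counts in control (1 to 7 UMIs for the leading 3) leave wide intervals. Slc11a2, the divalent metal transporter DMT1, was 3.51-fold higher (1.65 to 8.95), Slc39a14 3.55-fold (0.900 to 30.6) and Slc39a8 6.15-fold (1.01 to 252).

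Among 8 haem uptake and transport genes, 3 were lower and 1 higher past the fold, against a background of 14.7% lower and 25.9% higher. Cd163, the haemoglobin scavenger receptor, was 8.65-fold lower (7.46 to 10.1). It is also among the markers that named the resident subset, 95.1% of the class in control and 10.3% in room air. Slc46a1, a haem and folate transporter, was 3.38-fold lower (1.64 to 6.87) and Hp, haptoglobin, 4.09-fold higher (2.17 to 8.68). Of the 12 partners and regulators of haem breakdown, 3 were lower and 0 higher past the fold, among them the transcription factor Maf (3.81-fold, 3.43 to 4.22) and Hmox2, the constitutive haem oxygenase (1.57-fold, 1.34 to 1.83). Bach1, the haem-sensing repressor of Hmox1, was at 47.8 and 46.0 CPM, and Nfe2l2, which encodes its activator NRF2, at 157 and 183 CPM, and neither passed the fold.

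Of the 5 export partners only Cp had enough UMIs. Cp encodes ceruloplasmin, the ferroxidase that works with ferroportin. It was at 70.6 CPM in control and 20.7 CPM in room air, 3.41-fold lower (2.40 to 4.82). Slc40a1 was also lower in the class as a whole, but 1.23-fold higher in resident cells, with an interval that includes no difference. Among 6 storage and ferritin-turnover genes 1, Herc2, was past the fold, lower by 1.68-fold (1.07 to 2.58), beside Ireb2 (1.44-fold lower) and Fbxl5 (1.36-fold higher), both with intervals that include no difference. Among 15 mitochondrial iron genes, 4 were higher and 3 lower past the fold, near the background of 25.9% and 14.7%. Slc25a37, which encodes the mitochondrial iron importer mitoferrin 1, was 2.40-fold lower (1.57 to 3.62), and Lyrm4 was 2.92-fold higher with an interval that includes no difference.

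Between aneurysm and room air, 2 of the 60 genes of the 7 lists with enough UMIs passed the fold in macrophage-like cells, both lower, against 7.66% lower and 3.86% higher among all genes: Nr1d1 by 1.67-fold with an interval that includes no difference and Lyrm4 by 1.71-fold (1.01 to 2.94). Those nearest the fold were Cpox (1.495-fold lower), Cd163 (1.49-fold lower), Slc39a8 (1.49-fold lower) and Mafk (1.45-fold lower). Cp was 1.32-fold higher with an interval that includes no difference, which is the opposite side from Slc40a1.

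Across 47 combinations of class and library, each gene was also compared with 5417 other genes by Pearson's r of log2(CPM + 10), as a description with no test, since the points share libraries and depth. Slc40a1 was most like the resident markers Lyve1 (r = 0.84), Folr2 and Fcna. Fth1 was most like Ctsb (0.93), Lgmn and Grn, which encode lysosomal proteins, and Ftl1 like its near copy (0.96) and then Atp6v0b (0.95), a subunit of the vacuolar proton pump. Hmox1 was most like the Fc receptor Fcgr3 (0.94), Trf like Fcgr2b (0.94), and Slc11a1 like Pla2g7 (0.95) and Lyz2. Blvrb had a looser partner (Aldh2, 0.82), and no gene exceeded 0.54 with Tfrc. Within the list, Hmox1 and Slc11a1 were the closest pair (0.91), the ferritin chains stood at 0.87, and Tfrc ranged from -0.14 to 0.31 with the others.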

How the data were processed

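Single cells of 3 libraries (10x Genomics 3' chemistry) were analysed, 1 library of pooled mice per group. The values are UMI counts per gene and barcode, deposited by the authors as raw matrices; Cell Ranger, STAR and mm10 were used per the submitters' processing notes, with versions not given in the sources used here. In total the files hold 2568192, 9998517 and 16698309 UMIs for control, room air and aneurysm. Since mice were pooled within a library, the spread between mice was not measured.

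Barcodes with at least 200 genes and at most 10% mitochondrial UMIs passed (778, 1848 and 2839). The automatic threshold of the doublet caller marked 2, 1 and 0 barcodes and was not used; the highest scores, 5, 27 and 64 barcodes at an expected 0.8% per 1000 barcodes, were removed. Cells were clustered (2000 variable genes, 30 components, 15 neighbours, Leiden resolution 1; scanpy 1.11.5, igraph 0.11.9) without the iron and haem genes and Apoe. Clusters were named from fixed markers with a score limit of 0.6 set after the clusters were seen. That limit kept 2 clusters, with 9.44%, 4.12% and 5.30% of kept cells in the 3 libraries, out of the macrophage-like class.

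UMIs were summed by class and library and divided by all UMIs of the class (CPM). Levels have exact Poisson intervals, ratios exact conditional binomial intervals and shares Clopper-Pearson intervals (scipy 1.17.1). Only the ratio intervals were tried on simulated data. Those counts were drawn from a Poisson model without spread between cells, so the trial cannot show how the intervals do where cells differ. All 9 members are named; of each pathway list, the 3 genes with the largest absolute log2 ratio in the macrophage-like comparisons, with a few others named for their role or after their values were seen (Bach1, Nfe2l2 and, for aneurysm against room air, Cp). The members and lists were chosen with earlier results of these data known. A few genes that the rule names are not reported here. Cd91, Flvcr1 and Flvcr2 had no row under these symbols. Alternatives covered resolution, filters, doublets, free RNA, denominator, edgeR 4.0.16 TMM scaling, class rules and clustering genes. A smoke-exposed group without aneurysm was not analysed here.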

Additional observations from a re-analysis of the deposited data

Results flagged for a closer look

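Hmox1, the inducible haem oxygenase, went opposite ways at different levels of grouping for room air against control: it was 1.68-fold higher in resident macrophage-like cells and 1.53-fold lower in the macrophage-like class that contains them. The share of resident cells in the class was 95.1% in control and 10.3% in room air. The resident ratio depended on where the subset ends: the ratio of room air to control for Hmox1 was 0.822 with a stricter filter on cells and 1.02 with the iron and haem genes and Apoe used for clustering, so the opposite direction did not hold there. The difference between the ratios was not tested, since each group is 1 library.

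Trf, transferrin, was 2.15-fold higher in room air than in control in T cell-like cells, at 84.9 and 39.5 CPM, and 3.52-fold lower in cDC1-like cells, at 109 and 385 CPM. Over the alternatives the T cell-like Trf ratio went as low as 1.49, under the fold, and the cDC1-like one ran from 1.64- to 24.3-fold lower. That difference was not tested either. Macrophage markers summed to 2212 and 705 CPM in the T cell-like cells of room air and control, and their part in the Trf ratio was not tested.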

How the results depend on the processing

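The 9 genes gave 62 ratios past 1.5-fold with an interval that excludes no difference, and classes and their subsets are both among them. Their direction held in 61 of 61 that could be recomputed at Leiden resolution 0.5 and 62 of 62 at resolution 2. With TMM factors it held in 29 of 29, and with at least 500 genes and at most 5% mitochondrial UMIs in 61 of 62. It held in 50 of 52 with each cell classed by its own marker score and 52 of 54 with free RNA subtracted. With the iron and haem genes and Apoe used for clustering it held in 62 of 62, and without doublet removal in 61 of 62. Another denominator gave 62 of 62, and leaving out the resident cluster 31 of 31. Leaving out the resident cluster changed the cells of the macrophage-like class only, so ratios of the other classes could not move in that setting. The number of ratios that also stayed past the fold was 59, 57, 27, 57, 42, 48, 57, 57, 60 and 31 in the same order. Those that turned were Hmox1 in resident cells, room air against control (ratio 0.822, stricter filter), Fth1 in nonclassical monocyte-like cells, aneurysm against room air (1.03), and Trf in B against T cell-like cells within room air (1.87), both with each cell classed by its own score, Ftl1 for room air against control in T cell-like (0.485) and ILC2-like cells (0.923), both with free RNA subtracted, and Trf in mature dendritic cell-like cells, aneurysm against room air (1.02, no doublet removal); the cause was not tested. In macrophage-like cells, room air against control, 0 genes were past the fold higher, and 1 was (Fth1, 1.51-fold) at resolution 0.5, 1 (Fth1) with the 2 clusters left out by the score limit joined to the class, an alternative chosen after seeing the data, and 2 (Fth1 and Slc11a1, 1.55-fold) with each cell classed by its own score. The lower count was 5, and 4 where Hmox1 went under the fold. For aneurysm against room air the counts of 0 and 1 did not move in any setting. Removing the resident cluster left too few control macrophages for a value of room air against control. No paired analysis was possible because each group has 1 library, and none could be left out. Slc40a1, Tfrc and the control monocytes are limited by counts: 45, 22 and, for Slc11a1, 5 UMIs.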
